A study of Homo sapiens with 6 samples.

Results

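Oxidative phosphorylation genes were compared between Adriamycin-resistant (ADRr) and parental MDA-MB-231 cells. MDA-MB-231 is an established human triple-negative breast cancer line, and Adriamycin (doxorubicin) is an anthracycline that damages DNA. The ADRr cells had been selected in stepwise increasing Adriamycin and then cloned by limiting dilution, so the group may represent a clone rather than a population, and the parent cells are the line they came from. RNA-seq gave 3 libraries of each. The labels do not say whether these came from separate cultures, and the series text speaks of 3 time points that the labels do not assign, so the SDs and p-values measure the spread between libraries, whatever its source. The study's methods describe poly(A) selection, while the labels give total RNA and name a different kit. Members were the protein-coding genes whose symbols begin with NDUFA, NDUFB, NDUFC, NDUFS or NDUFV, are SDHA to SDHD, begin with UQCR, COX4 to COX8 or ATP5, or name a messenger RNA of mitochondrial DNA (mtDNA). This rule found 112 of the 58735 genes listed, 99 encoded in the nucleus and 13 in mtDNA. The filter on low counts left 101 members (88 nuclear and all 13 of mtDNA) among the 15242 genes tested.

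The respiratory chain passes electrons from NADH (complex I) or succinate (complex II) through complex III and cytochrome c to oxygen at complex IV, and the proton gradient that complexes I, III and IV build drives ATP synthase. Every complex except complex II is assembled from subunits of both genomes. mtDNA is transcribed as long precursor RNAs that are cut mainly at the tRNAs between the genes, and most of its mRNAs then receive short poly(A) tails.

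The libraries held 15983985 to 18272314 counts. The line's markers VIM, CD44, EGFR, KRT8 and KRT18 were abundant in every library, while ESR1, PGR, PTPRC, LYZ and ALB were at or near 0. PECAM1 had means of 0.445 CPM in parent and 0.514 in ADRr libraries. ERBB2 and CDH1 had been listed as low in this line. Their means were 120 and 14.7 CPM in parent and 50.8 and 7.04 CPM in ADRr libraries. Of the abundant markers, CD44 and EGFR were higher in ADRr cells. VIM, KRT18 and KRT8 (log2 fold change -2.00) were lower. MKI67, a proliferation marker, was lower in ADRr cells by edgeR (log2 fold change -1.12, adjusted p = 2.62e-14), and its part in the results below was not tested. In bulk RNA, fewer cells expressing a gene and less RNA per cell cannot be told apart.

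The compact layout of mtDNA limits how its genes can be counted apart, and the shared and terminal bases are therefore shown first. MT-ATP8 and MT-ATP6 lie on 1 mRNA with 46 shared bases, and MT-ND4L and MT-ND4 share 7; in the sequences below (GENCODE 29 on GRCh38, plus strand, chrMT:8515-8584 and chrMT:10748-10778), capitals mark the bases that belong to both genes.
MT-ATP8/MT-ATP6: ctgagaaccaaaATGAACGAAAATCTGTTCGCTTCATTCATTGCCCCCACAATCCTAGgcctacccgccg
MT-ND4L/MT-ND4: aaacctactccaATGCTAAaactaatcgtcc
As annotated, 6 of the 13 mRNAs end in an incomplete stop codon that the poly(A) tail completes, and 7 end in a full codon. The last annotated base of MT-ATP6 (chrMT:9207) is also the first of MT-CO3. Whether the MT-ATP6 mRNA keeps that base, and so a full stop codon, is not given by the annotation. The last 18 bases are given for the mRNA that was higher in ADRr cells (MT-ND1), the mRNA that was not called (MT-CO1), and MT-ATP6 and MT-CO3, which are neighbours on the map and both lower. Capitals mark the incomplete or last codon.
MT-ND1: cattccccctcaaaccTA
MT-CO1: gtatacataaaatctAGA
MT-ATP6: ctgcacgacaacacaTAA
MT-CO3: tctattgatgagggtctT

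Most mtDNA-encoded mRNAs were lower in ADRr cells. By edgeR's quasi-likelihood test, with 1.2-fold as the smallest change and 0.05 as the largest adjusted p allowed for a call, 11 of 13 fell, MT-ND1 rose and MT-CO1 was not called. An unfiltered limma-trend fit of log2(FPKM + 1) called 4 mtDNA-encoded mRNAs lower. Over all tested genes, 29.6% were called lower and 29.2% higher. The median log2 fold change of the 13 was -0.52, against -0.01 over all tested genes. Together these mRNAs took 4.20, 4.46 and 4.21% of counts in the parent libraries and 3.50, 3.37 and 3.80% in the ADRr libraries (4.29% ± 0.144 and 3.56% ± 0.223, SD, n = 3).

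MT-ATP6, a proton channel subunit of ATP synthase (chrMT:8527-9207), had 3839, 3973 and 3945 TMM-scaled CPM (counts scaled to library size) in parent libraries and 2315, 2126 and 2563 in ADRr libraries. The groups did not overlap, and its log2 fold change was -0.75 (SE 0.0518, edgeR adjusted p = 1.71e-11). MT-ATP8, its partner on the same mRNA, gave 94.6, 93.3 and 110 CPM and then 52.2, 49.2 and 69.5 CPM, a log2 fold change of -0.80 (SE 0.0944, edgeR adjusted p = 1.14e-07). The ratio of MT-ATP8 to MT-ATP6 per length (FPKM) was 0.0835 ± 0.00771 in parent and 0.0799 ± 0.00819 in ADRr libraries (SD, n = 3), with overlapping ranges.

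Among the complex I subunits of mtDNA, 6 of 7 fell (85.7%, against 29.6% of all tested genes). Their log2 fold changes ran from -0.64 for MT-ND5 to -0.35 for MT-ND3. MT-ND5 counted 3002, 3226 and 2958 CPM in parent libraries and 1927, 1845 and 2121 in ADRr libraries (SE 0.0499, edgeR adjusted p = 1.35e-10). MT-ND6 is the only mRNA of the opposite strand and fell by 0.62 on the log2 scale. The strand setting of the counting is not given in the sources used here, so reads of MT-ND6 and of RNA antisense to it could not be told apart. MT-ND2, MT-ND4L and MT-ND4 gave log2 fold changes of -0.47, -0.45 and -0.35. The FPKM ratio of MT-ND4L to MT-ND4, which overlap on 1 mRNA, was 1.07 ± 0.106 in parent and 0.999 ± 0.00541 in ADRr libraries, again with overlapping ranges.

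MT-ND1 (chrMT:3307-4262), a core membrane subunit of complex I, went the other way. Its levels were 1634, 1600 and 1655 CPM in parent libraries against 2375, 2397 and 2696 in ADRr libraries, so that every ADRr library lay above every parent library. The log2 fold change was 0.61 (SE 0.0478, edgeR adjusted p = 1.40e-10). Within the mtDNA-encoded mRNA counts its share went from 3.76% ± 0.178 to 7.05% ± 0.172 (SD, n = 3). Set against MT-ND2, the next mRNA on the map, the FPKM ratio was 0.660 ± 0.0425 in parent and 1.39 ± 0.0417 in ADRr libraries.

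Cytochrome c oxidase divided as well. MT-CO1 (chrMT:5904-7445), the subunit that holds the oxygen-reducing site, had a log2 fold change of -0.00 (SE 0.0449, edgeR adjusted p = 0.977) at 11602, 12783 and 11892 CPM in parent and 12001, 11413 and 12821 CPM in ADRr libraries, ranges that overlapped. MT-CO2, which receives electrons from cytochrome c, fell by 0.52 on the log2 scale, and MT-CO3 by 0.53. The FPKM ratio of MT-CO1 to MT-CO2 was 1.09 ± 0.0364 in parent and 1.56 ± 0.0572 in ADRr libraries (SD, n = 3). MT-CYB, the mtDNA-encoded subunit of complex III, was at 2254, 2254 and 2222 CPM in parent and 1525, 1470 and 1704 CPM in ADRr libraries, a log2 fold change of -0.52.

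**Figure D1:**
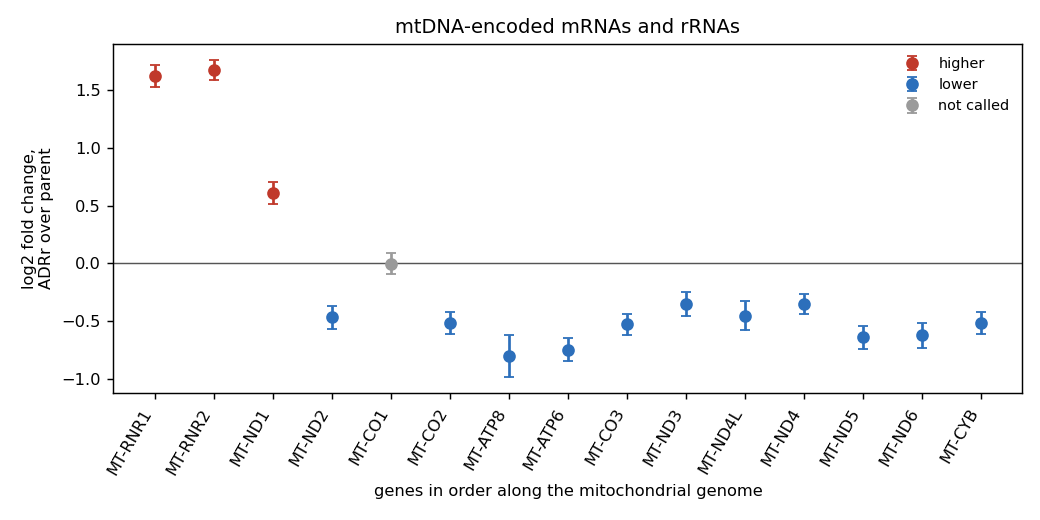
Log2 fold change (ADRr over parent, 3 libraries each) of the mtDNA-encoded mRNAs and rRNAs, in map order, with 95% intervals from the edgeR standard error. MT-ND1 and the rRNAs upstream of it were higher, MT-CO1 lay at 0, and the other 11 mRNAs were lower.

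The mtDNA rRNAs, which are not members, rose: MT-RNR1 by 1.62 and MT-RNR2 by 1.67 on the log2 scale. Their summed share went from 0.410% ± 0.0137 to 1.33% ± 0.0686 of counts (SD, n = 3). If the libraries were poly(A)-selected, as the methods but not the labels state, these counts do not measure the rRNA content of the cells. Nuclear pseudogene copies resemble several mtDNA genes: MTATP6P1, a copy of MT-ATP6, made up 6.21% of the summed CPM of the pair in parent and 5.20% in ADRr libraries. Adding it moved the log2 ratio of MT-ATP6 from -0.75 to -0.76.

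The nuclear members moved in both directions, with more called lower than higher. Of 88 tested, 34 fell, 13 rose and 41 were not called; the background was the same 29.6% lower and 29.2% higher. Among tested protein-coding genes with a mean of at least 20 CPM in parent cells, 36.6% were lower and 27.1% higher, with a median of -0.07. The members' 38.6% lower is close to the lower share of that set, and their 14.8% higher is below its higher share. The members ran from 2.90 to 559 CPM in parent cells, so that set is not matched to them in level. The median log2 fold change of the nuclear members was -0.15, against -0.02 over all tested protein-coding genes and -0.06 over the 78 mitochondrial ribosomal protein genes, of which 25 fell and 15 rose. ADRr lay below parent in every library for 41 nuclear members and above for 19 (34.7% and 34.5% of all tested genes). With adjusted p alone, the background was 33.2% lower and 32.8% higher; with a log2 fold change of at least 1.2 it was 6.38% and 7.31%, and no member passed that threshold; with glmTreat, which tests against the fold threshold, it was 24.1% and 23.6%. Summed over members, nuclear transcripts took 0.651% ± 0.0240 of counts in parent and 0.584% ± 0.0127 in ADRr libraries.

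**Figure D2:**
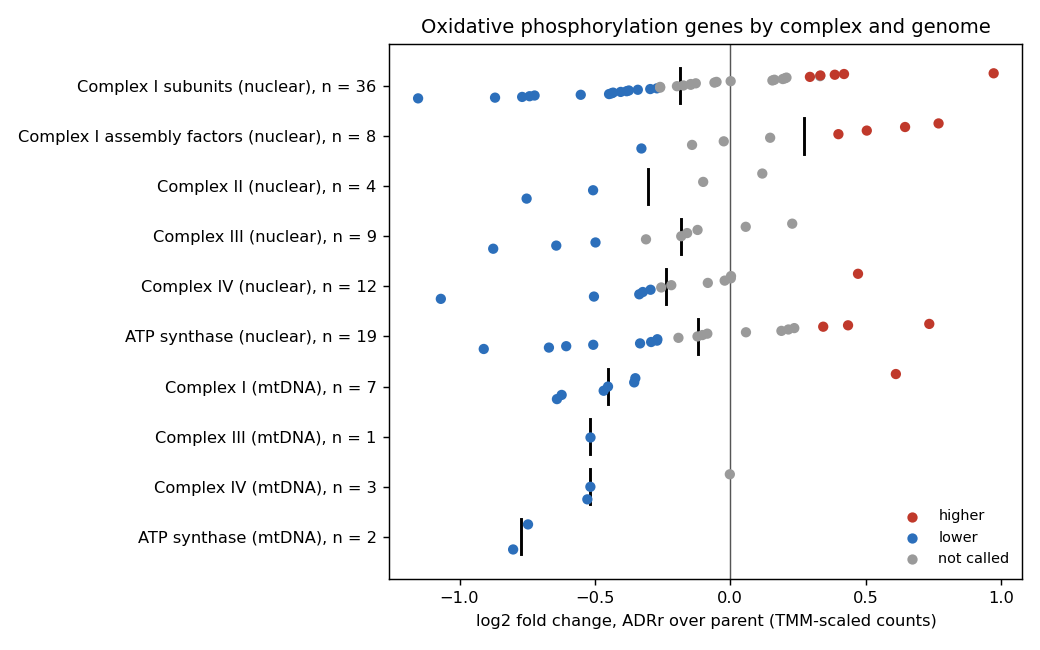
Log2 fold change of each of the 101 tested members, grouped by complex and genome of origin. Points are genes, colour gives the call, and black bars are group medians. The 8 NDUFAF assembly factors have a median above 0 (0.27, or 0.18 without parent replicate 1), and no group is wholly on 1 side apart from small mtDNA groups.

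Per length, the mtDNA-encoded mRNAs had the highest values among the members: their mean FPKM in parent cells ran from 470 (MT-ATP8) to 7677 (MT-CO1). The nuclear members ran from 0.763 (NDUFA9) through 236 (ATP5F1B) to 258 (COX8A). Levels between genes are uncertain. MT-ATP8 lies on 1 mRNA with MT-ATP6, which had 5634 FPKM. The length used is that of all annotated exons (10391 bases for NDUFA9) and need not be that of the transcript made. COX8A shares 34.5% of its exon bases with another gene.

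**Figure D3:**
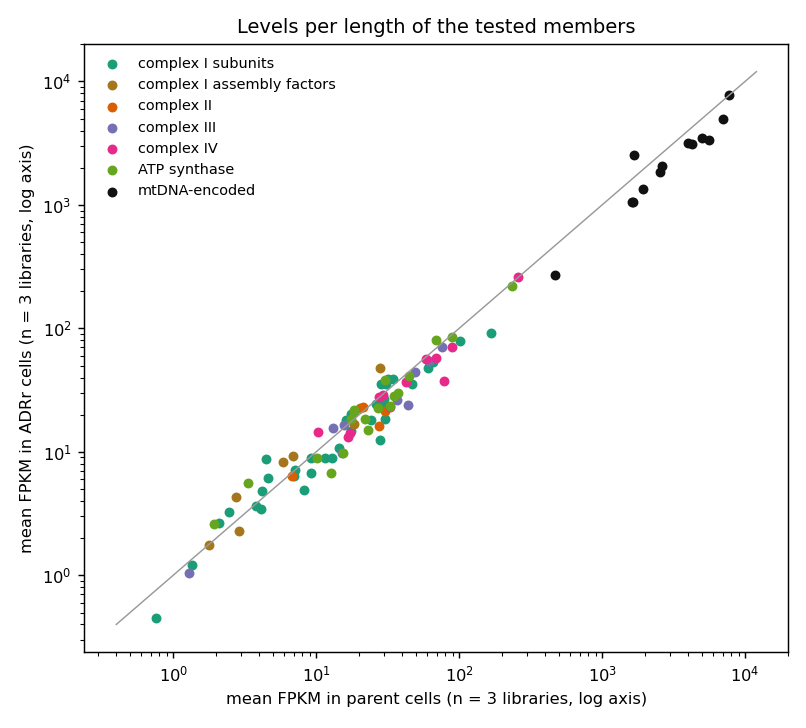
Mean FPKM in ADRr against parent cells for the 101 tested members, both axes log scale, coloured by group, with the line of equality. The mtDNA-encoded mRNAs lie above 270 FPKM in either group, and most lie below the line. MT-ATP8 (470.3 FPKM in parent and 270.5 in ADRr cells) lies close to the nuclear COX8A (258 and 259.5).

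Of the 36 tested nuclear subunits of complex I, 15 fell (41.7%) and 5 rose (13.9%), with a median of -0.19. Without parent replicate 3, 11 fell and 7 rose, with a median of -0.12. The 7 core subunits, the catalytic part of the complex, had 1 called lower and 1 higher (14.3% each). The 29 supernumerary subunits had 14 lower (48.3%) and 4 higher (13.8%). All tested genes gave 29.6% lower and 29.2% higher. Protein-coding genes with at least 20 CPM in parent cells gave 36.6% and 27.1%. The difference between core and supernumerary subunits was not tested. NDUFB6, a membrane-arm subunit (chr9:32552999-32573184), gave 38.8, 34.0 and 45.2 CPM in parent libraries and 19.4, 16.9 and 16.8 in ADRr libraries, with no overlap; its log2 fold change was -1.15 (SE 0.102, edgeR adjusted p = 1.11e-09). NDUFS5 (chr1:39026318-39034636), an intermembrane-space subunit and the nuclear complex I subunit with the highest FPKM, fell by 0.87 (93.4, 95.9 and 92.1 against 54.5, 51.7 and 47.9 CPM). NDUFA9 fell by 0.77, at 4.46 to 9.67 CPM, and was not called by limma-trend on log2(FPKM + 0.1).

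Rises were led by NDUFV3 (chr21:42879644-42913304), an accessory subunit of the NADH-oxidising module. It was at 31.4, 24.6 and 30.1 CPM in parent and 52.3, 57.6 and 59.5 in ADRr libraries, a log2 fold change of 0.97 (SE 0.0869, edgeR adjusted p = 1.36e-09). NDUFB9 rose by 0.42 and NDUFS7, a core iron-sulfur subunit, by 0.39. NDUFS7 shares 49.1% of its exon bases with other genes and NDUFB9 21.0%, so their counts are uncertain.

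The 8 assembly factors of complex I with NDUFAF symbols are not part of the finished complex. Against 29.2% higher and 29.6% lower over all tested genes, 4 of these 8 rose (50%), 1 fell (12.5%) and 3 were not called. Their median was 0.27, and 0.18 without parent replicate 1. Among complex I assembly factors outside the rule, ECSIT (-0.60), NUBPL (-0.41), COA1 (-0.30) and FOXRED1 (-0.29) fell, and TIMMDC1, ACAD9, TMEM126A, TMEM126B and TMEM186 were not called. NDUFAF2 (chr5:60945129-61153037) had 27.7, 30.9 and 28.2 CPM in parent against 48.9, 48.9 and 50.1 in ADRr libraries (log2 fold change 0.77, SE 0.0757, edgeR adjusted p = 6.56e-09). NDUFAF7 rose by 0.65, NDUFAF4 by 0.50 and NDUFAF1 by 0.40. NDUFAF6 fell by 0.33, a call that limma-trend made on log2(FPKM + 0.1) but not on log2(FPKM + 1). The group summed to 0.0171% ± 0.000743 of counts in parent and 0.0206% ± 0.00021 in ADRr libraries.

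Complex II is encoded wholly in the nucleus. SDHA, the flavoprotein that oxidises succinate (chr5:218241-256700), had 239, 221 and 243 CPM in parent libraries and 143, 138 and 136 in ADRr libraries, with a log2 fold change of -0.75 (SE 0.0540, edgeR adjusted p = 3.12e-11). The membrane anchor SDHD fell by 0.51. The anchor SDHC gave -0.10 (adjusted p = 0.133) and the iron-sulfur subunit SDHB 0.12 (adjusted p = 0.143), neither called by edgeR. Of the 4 members, 2 fell (50%) and 0 rose by edgeR, against 29.6% lower and 29.2% higher over all tested genes. DESeq2 also called 0 higher, and 0 were higher at an unadjusted p under 0.05. With only 4 genes, these shares cannot be told apart from the background. The FPKM ratio of SDHA to SDHB was 1.29 ± 0.00600 in parent and 0.708 ± 0.0309 in ADRr libraries (SD, n = 3), with no overlap.

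In complex III, 3 of 9 fell (33.3%, against 29.6% of all tested genes) and 0 rose by edgeR or DESeq2. At an unadjusted p under 0.05, 1 (UQCR11) was higher, with a log2 fold change of 0.23. UQCRC1, a core subunit (chr3:48599002-48610976), went from 134, 142 and 156 to 81.1, 78.7 and 75.7 CPM, a log2 fold change of -0.88 (SE 0.0627, edgeR adjusted p = 3.05e-11). UQCRB fell by 0.64 and UQCRFS1, the Rieske iron-sulfur protein, by 0.50. UQCRH and UQCRHL are near-identical copies, and counts between them are uncertain. The symbol rule leaves out CYC1 (cytochrome c1), also of complex III, which fell by 0.33 (edgeR adjusted p = 0.00015).

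In complex IV, 5 of 12 fell (41.7%) and 1 rose (8.33%), against 29.6% and 29.2% of all tested genes. COX5A (chr15:74919791-74938168), a nuclear subunit of the enzyme, had 114, 107 and 118 CPM in parent and 53.4, 56.5 and 51.3 in ADRr libraries, a log2 fold change of -1.07 (SE 0.0633, edgeR adjusted p = 1.10e-12). The FPKM ratio of COX5A to COX4I1 was 2.65 ± 0.0126 in parent and 1.29 ± 0.0600 in ADRr libraries. COX6C fell by 0.50, COX6B1 by 0.34, NDUFA4 by 0.32 and COX7B by 0.29. Without ADRr replicate 1, COX7B was not called (log2 fold change -0.18). COX7A2L, a factor in joining complexes III and IV into supercomplexes, was the member that rose (61.1, 54.6 and 61.4 against 79.4, 83.8 and 82.5 CPM, log2 fold change 0.47). COX7A2 (-0.22, called without ADRr replicate 1 at -0.27 or without parent replicate 1 at -0.30), COX4I1 (-0.02), COX6A1 (0.00) and COX8A (0.00) were not called. The alternative forms COX4I2, COX6A2, COX6B2, COX7A1, COX7B2, COX8C and NDUFA4L2 did not pass the filter and were not tested; COX7B2 counted 2, 4 and 10 in parent and 0, 0 and 0 in ADRr libraries. The other 4 untested members were NDUFA7 (8, 6 and 5 counts in parent and 10, 16 and 8 in ADRr libraries), ATP5MGL and the readthrough genes NDUFC2-KCTD14 and ATP5MF-PTCD1.

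ATP synthase had 8 of 19 nuclear genes lower (42.1%) and 3 higher (15.8%), with a median of -0.12 (-0.08 without ADRr replicate 3). The background over all tested genes was 29.6% lower and 29.2% higher. ATP5ME (subunit e) fell by 0.91, at 11.6, 10.8 and 13.9 CPM in parent and 7.11, 6.23 and 6.0 in ADRr libraries, but shares 61.6% of its exon bases with another gene. ATP5MPL fell by 0.67 and ATP5MC3, which encodes the proton-carrying c subunit, by 0.61. Of the other c subunit genes, ATP5MC1 fell by 0.27 and ATP5MC2 was not called (log2 fold change 0.06). Among rises, ATP5PO (the stalk subunit OSCP, chr21:33903453-33915980) went from 9.85, 11.8 and 12.8 to 19.1, 20.5 and 17.8 CPM (log2 fold change 0.73, SE 0.113, edgeR adjusted p = 5.59e-06). It shares 25.4% of its exon bases with other genes and ATP5S 20.1%, and without such genes 1 ATP synthase gene rose. ATP5S rose by 0.43 and ATP5F1D by 0.34, which was 0.18 and not called without parent replicate 2. ATP5IF1, the inhibitor that limits ATP hydrolysis, fell by 0.27 (edgeR adjusted p = 0.00341), just past the fold threshold; without parent replicate 3 or ADRr replicate 1 it gave -0.20 and -0.23 and was not called. DESeq2 called 8 ATP synthase genes lower and 2 higher. Counts without single libraries ran from 5 to 8 lower (5 without parent replicate 3) and 2 to 5 higher (2 without parent replicate 2, 5 without ADRr replicate 1).

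**Figure D4:**
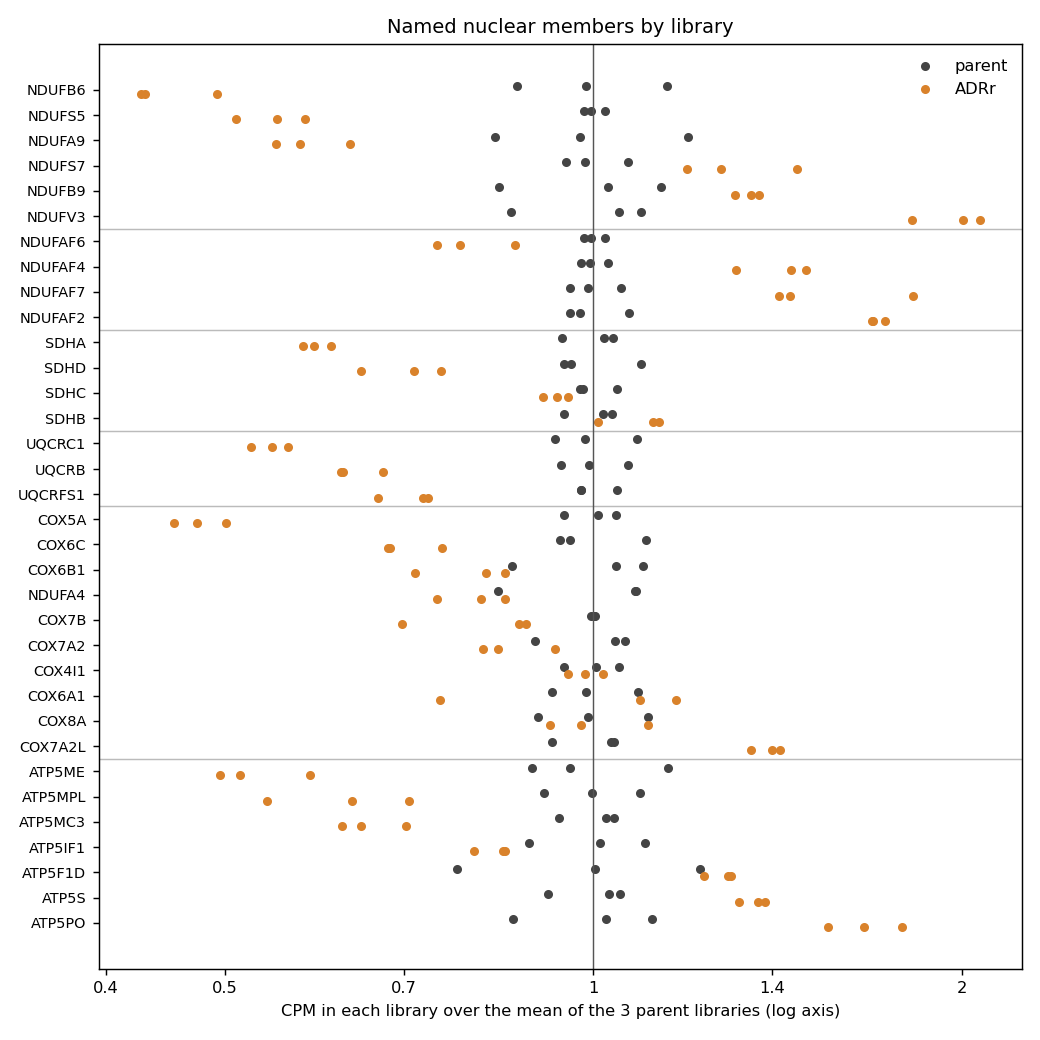
CPM of the named nuclear members in each library, divided by the mean of the 3 parent libraries (log axis, grey parent and orange ADRr, genes grouped by complex). The ADRr points of NDUFB6 and COX5A lie near or below 0.5 and those of NDUFV3 near 2, while COX4I1, COX6A1 and COX8A overlap the parent points.

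The members' chromosomal neighbours were set beside them, as the median log2 fold change of the 50 nearest tested genes. Of the 34 nuclear members called lower, 9 (26.5%) had neighbours with a median at or below the fold threshold on the negative side, against 23.3% of all tested genes called lower. Of the 13 called higher, 4 (30.8%) had neighbours past it on the positive side, against 17.7% of all genes called higher. The neighbour medians were -0.60 for NDUFB6, -0.46 for COX5A, -0.73 for UQCRC1, 0.63 for NDUFV3, 0.66 for ATP5PO, 0.63 for NDUFAF7 and 0.73 for COX7A2L. They were 0.05 for SDHA, -0.13 for NDUFS5 and 0.71 for ATP5F1A, which itself fell by 0.33. The part of the neighbourhood in the members' values was not tested.

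**Figure D5:**
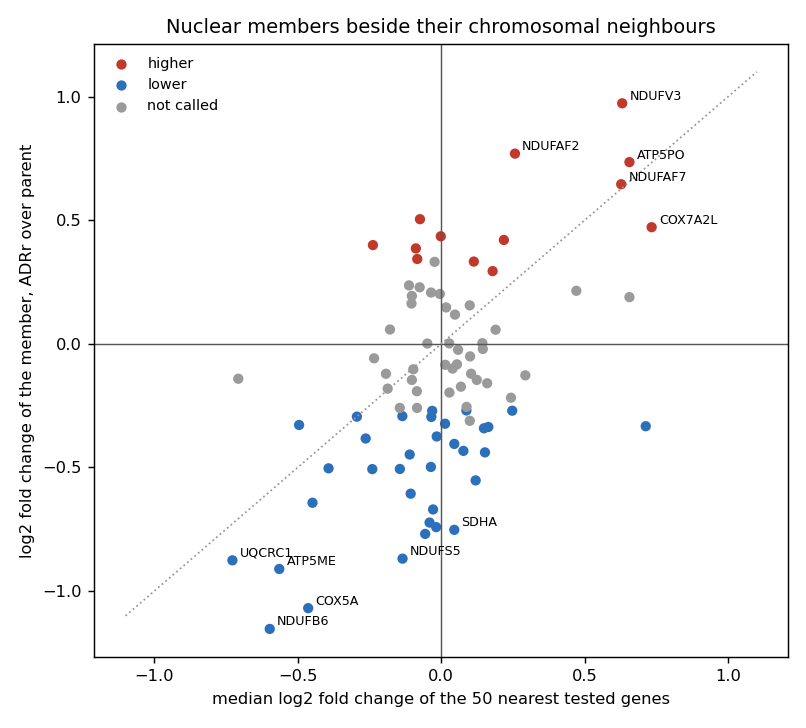
Log2 fold change of each tested nuclear member against the median of its 50 nearest tested genes (ADRr over parent); the dotted line is equality. NDUFV3, ATP5PO, NDUFAF7 and COX7A2L lie at the right with raised neighbours; UQCRC1, NDUFB6, COX5A and ATP5ME at the left with lowered ones.

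Promoters were read for 76 of the 99 nuclear members that had an entry in RefSeq's table (GRCh38.p14). In the 250 bases before the start site, the NRF1-type motif GCATGCGC (both strands) occurred in 12 of 76 members (15.8%) against 2.63% of all promoters and 3.26% of those of protein-coding genes, and the ETS-type motif CCGGAAG (both strands) in 17 (22.4%), against 8.52% and 10.7%. By call, the NRF1-type motif was in 2 of 10 members called higher and 4 of 25 called lower, and the ETS-type motif in 1 of 10 and 5 of 25. Among the 35 not called, 6 (17.1%) held the NRF1-type and 11 (31.4%) the ETS-type motif. These motifs are known for nuclear respiratory genes, and a match is a description only. Windows of 30 bases around matches are printed for 3 called members, with the motif in capitals, on the gene's strand.
SDHD, NRF1-type, chr11:112086754-112086783: gctgtgtttgcGCATGCGCgacgggtgtgc
NDUFS3, ETS-type, chr11:47578980-47579009: tccacgtccgcCCGGAAGaagatctgctgc
NDUFAF4, ETS-type, chr6:96898020-96898049: gccacctcccgCCGGAAGcggccctcgtgg

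Genes outside the rule that serve the chain were counted from lists, to be read against the 29.6% lower and 29.2% higher over all tested genes. Of 57 tested electron carriers and assembly factors, 20 fell (35.1%) and 10 rose (17.5%); COX18, an insertase for MT-CO2, fell by 1.12 on the log2 scale and COQ5, of coenzyme Q synthesis, rose by 1.07. Of 26 genes for mtDNA upkeep and mitochondrial RNA, 8 rose (30.8%) and 5 fell (19.2%). LRPPRC, which stabilises mtDNA-encoded mRNAs, was at 201, 225 and 196 CPM in parent and 471, 459 and 485 in ADRr libraries (log2 fold change 1.19, SE 0.0544, edgeR adjusted p = 1.13e-14), and POLG, the mtDNA polymerase, fell by 0.92. Of 13 tested regulators, MYC, ESRRA and PPRC1 rose and HIGD1A, GABPB1 and NRF1 fell (23.1% each way), with MYC at 0.95 and HIGD1A at -0.50. Of 14 citric acid cycle genes, 7 fell (50%) and 2 rose (14.3%). IDH2 fell by 1.32 and DLST rose by 0.40. Neighbour medians of single list genes are not given here. LRPPRC (chr2:43886508-43996005) lies on the chromosome of COX7A2L (chr2:42333546-42425088), whose neighbour median was 0.73. POLG and IDH2 lie on chromosome 15 with COX5A, whose neighbour median was -0.46. The part of the neighbourhood in the list genes' values was not tested.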

How the data were processed

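RNA-seq libraries (poly(A)-selected per the study's methods) were made from 3 parent and 3 ADRr samples. The deposited counts are raw counts per gene made by the authors, per the labels with fastp, HISAT2 2.0.5 and featureCounts 1.5.0-p3 on GRCh38; their deposited FPKM values are scaled by gene length and by counted fragments. Gene IDs and lengths are those of GENCODE 29, and the strand setting is not given in the sources used here. Library totals were 15983985 to 18272314 counts.

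Counts were tested with edgeR 4.0.16 (TMM, filterByExpr, quasi-likelihood; R 4.3.3), with Benjamini-Hochberg adjustment over all 15242 genes; DESeq2 1.42.0 and limma 3.58.1 on log2(FPKM + 1) were alternatives, with others listed in the closing section. A call required both 1.2-fold or more and an adjusted p no larger than 0.05. CPM were TMM-scaled, and FPKM ratios are of the authors' values. The steps were tested on simulated data. Named genes were all mtDNA-encoded mRNAs, the SDH genes, the largest called changes of each nuclear group whose libraries did not overlap (3 each way), the complex IV paralogues, ATP5IF1 and the largest called change each way of each related list. NDUFAF1, NDUFS3, ATP5F1A, ATP5F1B, ATP5MC1, ATP5MC2, UQCR11, UQCRH, UQCRHL, CYC1, ECSIT, NUBPL, COA1, FOXRED1, TIMMDC1, ACAD9, TMEM126A, TMEM126B, TMEM186, ESRRA, PPRC1, GABPB1 and NRF1 were named after their values were seen. The members and lists were chosen with earlier results of these data known. The pseudogene comparison and the exclusion of members sharing at least 15% of exon bases were added after seeing the data.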

Additional observations from a re-analysis of the deposited data

How the results depend on the processing

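Counts and medians kept their side under most alternatives: with all 6 libraries, the mtDNA-encoded median ran from -0.52 to -0.49 and the nuclear median from -0.20 to -0.11 across settings; without single libraries they ran from -0.58 to -0.47 and from -0.19 to -0.11. At an absolute log2 fold change of 1.2, 0 members were called in either direction in any group. glmTreat called 24.1% of all tested genes lower and 23.6% higher. It called 9 of all 101 members higher. Of 88 nuclear members it called 8 higher and 21 lower, and of 36 complex I subunits 2 higher and 9 lower. The lower counts of these 2 sets are close to the background, and their higher counts are below it. It called 0 assembly factors, 2 complex IV genes and 5 ATP synthase genes lower. Adjusted p alone called 1 complex III gene and 6 ATP synthase genes higher, against 32.8% of all tested genes. Unfiltered limma-trend on log2(FPKM + 1) called 28 of all members, 4 mtDNA-encoded mRNAs, 2 complex IV genes and 0 assembly factors lower, with a median of -0.14 over all members; with a filter it also called 0 assembly factors lower. With no count filter, 2 complex IV genes were called higher. Without the members sharing at least 15% of exon bases, 3 complex I subunits and 1 ATP synthase gene were higher, and the median over all members was -0.26. The cause of these differences was not tested.

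Leaving out single libraries gave 0 to 1 complex III genes higher (1 without parent replicate 3), 2 to 5 ATP synthase genes higher and 5 to 8 lower. No paired relation was seen between equal replicate numbers (correlations of deviations 0.00735, -0.0213 and -0.0457); with a replicate block, 13 nuclear members rose and 34 fell, and 1 mtDNA-encoded mRNA rose and 11 fell, as without it. Of 938 repeats over 55 named genes, 883 kept direction and call, 28 lost the call, 2 gained it and 25 changed sign, all in 4 genes not called. MT-CO1 was 0.00165 with DESeq2 size factors and in DESeq2, 0.00256 in the limma-trend fits, 0.0248 by library size alone, 0.00819 with at least 10 counts in every library, 0.0106 with protein-coding genes only, and -0.0473 to 0.0422 without single libraries. COX4I1 was 0.00605 by library size alone and -0.065 to 0.0119 without single libraries. COX6A1 was -0.0126 and -0.0138 in limma-trend with pseudocounts of 1 and 0.1, -0.0147 with the replicate block, and -0.113 to 0.175 without single libraries; COX8A was -0.0723 to 0.0791 without single libraries. NDUFA7, with 5 to 16 counts a library, did not pass the filter; it shares 33.5% of its exon bases with other genes.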

Other observations

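Among mitochondrial tRNAs, MT-TN (log2 fold change 1.30, edgeR adjusted p = 1.85e-14) and MT-TC (1.41, edgeR adjusted p = 3.3e-14) rose, while MT-TP (-0.02, adjusted p = 0.884, edgeR) was not called. MT-TY, MT-TL1 and MT-TV were also called higher, MT-TV from a mean of 0.431 CPM in parent libraries. MT-TH fell (-1.13, edgeR adjusted p = 0.00275), from a mean of 4.18 CPM in parent to 1.89 in ADRr libraries. The summed tRNA share went from 0.0254% ± 0.000373 to 0.0597% ± 0.000634 of counts (SD, n = 3). The nuclear pseudogene copies of mtDNA-encoded mRNAs took 0.0483% ± 0.00242 of counts in parent and 0.0306% ± 0.0015 in ADRr libraries. MTATP6P1 fell by 1.02, MTND2P28 by 0.42 and MTCO1P12 by 0.28 on the log2 scale, whereas adding each to the gene it copies moved the log2 ratio by little: MT-ND2 was -0.47 with and without its copy.

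Within the mtDNA-encoded mRNA counts, MT-CO1 held 27.9% ± 0.509 in parent and 34.2% ± 0.409 in ADRr libraries, and MT-ATP6 held 9.04% ± 0.198 and 6.61% ± 0.207 (SD, n = 3).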
